A study of Mus musculus with 14 samples.

Results

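The 8 genes described here encode HECT and UBR ubiquitin ligases, most of them very large proteins: Herc1, Herc2, Huwe1, Ubr3, Ubr4, Trip12, Ube3a and Ube3b. They were chosen by gene symbol from a table of 23412 genes, with Ube3a as a shorter protein for comparison. Their RNA and their ribosome footprints were measured in the brain cortex of mice with and without a working Fmr1 gene. Fmr1 encodes FMRP, an RNA-binding protein found on polyribosomes whose loss causes fragile X syndrome in people. Control mice were Rpl22 flox/flox and CamKCre+, and knock-out (KO) mice carried the Fmr1X-Y genotype beside the same Rpl22 flox/flox and CamKCre+ alleles, so the Cre transgene and the floxed Rpl22 allele were shared by every animal. The labels name the animals CAMKIIa-Ribotag mice. The CamKIIa promoter drives Cre in excitatory forebrain neurons, but the protocols describe whole lysates with no pulldown of tagged ribosomes, so every cell type of the tissue could contribute. No age is given in the labels. RNA was sequenced from 4 mice of each genotype, numbered 1, 3, 6 and 8 among controls and 2, 4, 5 and 7 among KO mice. Ribosome profiling, which reads the short mRNA pieces that translating ribosomes cover, was done on 3 mice of each genotype: controls 1, 3 and 9 and KO mice 2, 4 and 10. Mice 1 to 4 were thus in both assays. The title of the series asks about translation elongation in this mutant, and footprint counts per gene reflect both how many ribosomes load onto an mRNA and how long they stay there.

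Ubiquitin ligases are the last enzymes of a 3-step cascade. An E1 enzyme activates ubiquitin, an E2 enzyme carries it, and an E3 ligase attaches it to a chosen substrate, often marking that protein for the proteasome. HECT ligases take ubiquitin onto a cysteine of their own before handing it to the substrate, and UBR-box proteins recognise the N-termini of the proteins they bind. Several of the genes matter in the nervous system: loss of the maternal copy of UBE3A causes Angelman syndrome, and variants of HERC1, HERC2, HUWE1, TRIP12 and UBE3B are linked to intellectual disability.

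The genes lie on different chromosomes, and only Herc2 and Ube3a share one. Herc1 is on chromosome 9, Herc2 and Ube3a are on chromosome 7, Huwe1 is on chromosome X, Ubr3 on 2, Ubr4 on 4, Trip12 on 1 and Ube3b on 5. All 8 had promoter sequences in the RefSeq table for GRCm38.p6. In 3 of the 8 genes the 250 bases before the start site held the motif TCGCGAGA on either strand (its reverse complement is TCTCGCGA), and 282 of 32851 promoter windows in that table (0.858%) held it. The motif was chosen after the sequences were seen, and a match is a stretch of letters, not evidence of a bound factor. The 60-base stretches around it are printed because they are a sequence feature that 3 of the genes share and that was not used to choose them. They lie at chr2:69897170-69897229 for Ubr3, chr9:66350375-66350434 for Herc1 and chrX:151803164-151803223 for Huwe1, all on the plus strand, 5′ to 3′, with the motif in capitals.
Ubr3: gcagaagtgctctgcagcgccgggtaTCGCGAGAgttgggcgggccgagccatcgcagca
Herc1: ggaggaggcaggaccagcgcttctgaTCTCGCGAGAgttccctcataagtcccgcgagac
Huwe1: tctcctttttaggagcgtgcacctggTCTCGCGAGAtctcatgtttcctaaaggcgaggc
In Herc1 and Huwe1 the motif and its reverse complement overlapped, which makes 10 capital letters. Of these 3 genes, Herc1 and Huwe1 had fewer footprints in KO mice, and Ubr3 did not pass that test.

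Gene counts per library summed to between 8847547 and 11371851 for RNA and between 4124065 and 6033030 for footprints. Levels are given as CPM, a gene's count relative to the total count of its library, with libraries scaled to each other by the TMM method. Fmr1, the targeted gene, fell from 82.9 ± 8.36 CPM (SD, n = 4) to 21.7 ± 2.40 CPM (n = 4) in RNA and from 113 ± 1.99 CPM (n = 3) to 7.44 ± 1.43 CPM (n = 3) in footprints, with no overlap between genotypes. Choroid plexus genes were uneven in RNA: the 5 markers summed to between 11.98 and 284 CPM in control libraries, with the highest in mouse 8, and to between 7.66 and 121 CPM in KO libraries, with the highest in mouse 5. RNA libraries of KO mice 2, 4 and 7 differed from each other little more than sampling noise (chi-square per degree of freedom 1.18 to 1.32 over genes), while KO mouse 5 differed from them by 5.64 to 6.02. Control mice 1 and 3 gave 1.99, and the other control pairs gave 4.03 to 11.8. Footprint pairs within a genotype gave 1.15 to 1.42. The labels give each library its own mouse number, and nothing else says how the animals were related, so p-values measure the spread between these libraries.

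In footprints, 5 of the 8 ligases were lower in KO mice and none was higher. Herc1, Herc2, Huwe1, Ubr4 and Trip12 fell to between 68.5% and 83.9% of the control mean, and in each of them all 3 KO libraries lay below all 3 control libraries, as they did in 19.2% of all genes tested in footprints. Ubr3, Ube3a and Ube3b did not pass the test and their groups overlapped. The background was large: 25.5% of the 12158 genes tested passed the threshold (adjusted p below 0.05 in edgeR's quasi-likelihood test), with 13.6% lower and 11.9% higher. The median log2 fold change of the 8 ligases was -0.33, beside 0.0054 over all genes tested.

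**Figure D1:**
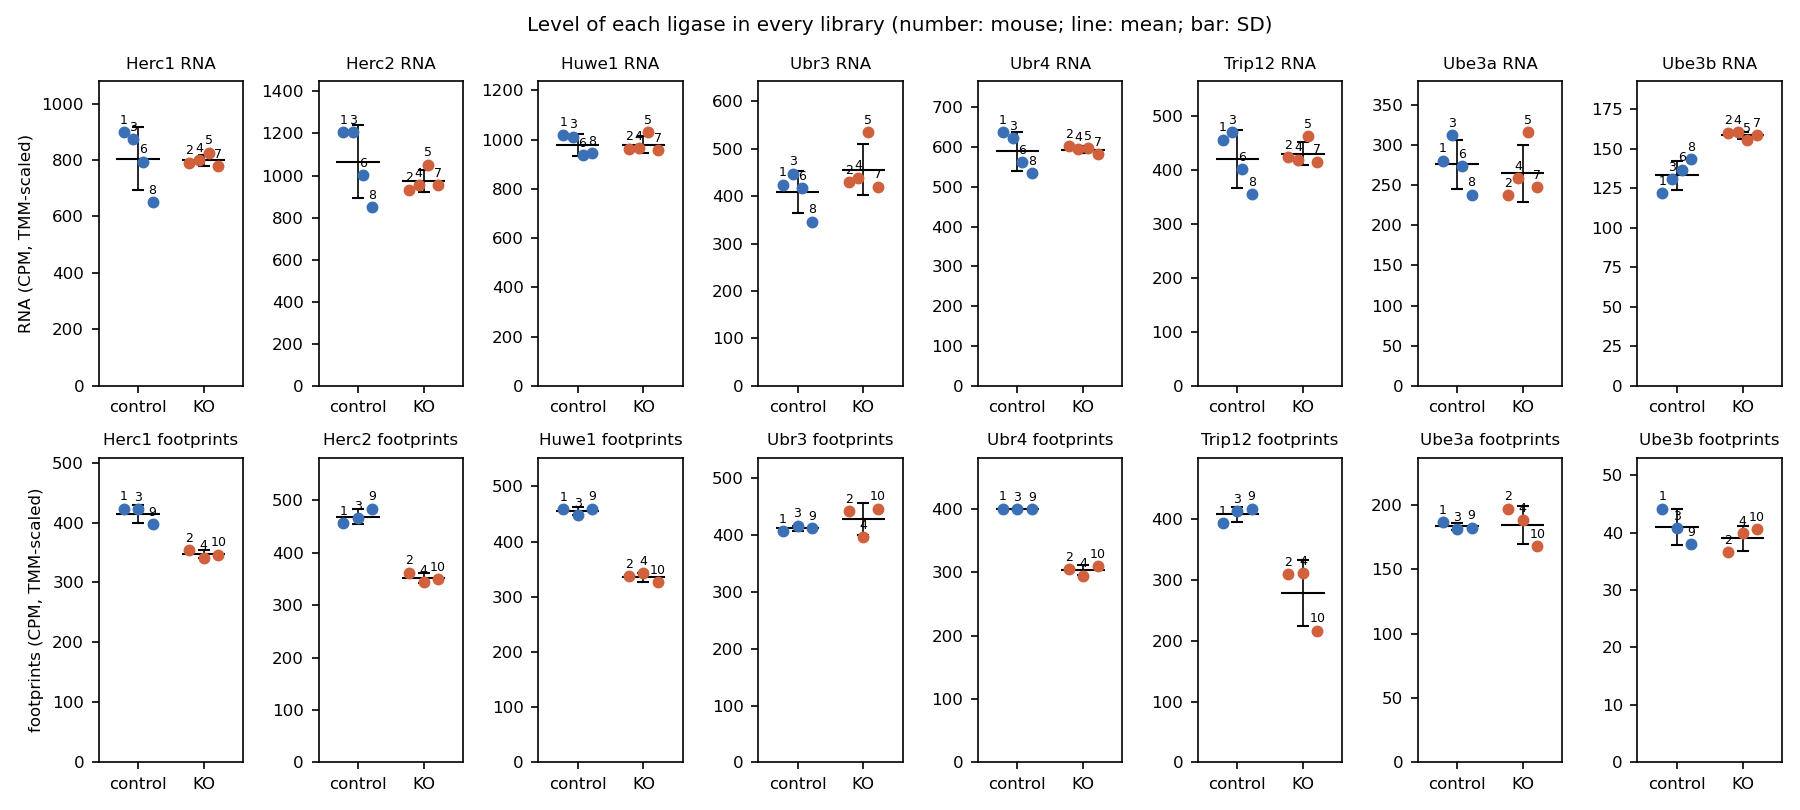
RNA (top row) and footprint (bottom row) levels of each ligase in CPM, 1 point per library with the mouse number beside it, control in blue and KO in orange, with a line at the mean and a bar of 1 SD; each panel has its own axis from 0. In the bottom row the KO points of Herc1, Herc2, Huwe1, Ubr4 and Trip12 lie below all control points, and in the top row Ube3b is the gene whose KO points all lie above the control points.

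Herc1 and Herc2 carry RCC1-like repeats beside their HECT domains, and Herc2 acts in DNA repair and binds Ube3a. Herc1 footprints were 423, 422 and 397 CPM in control mice 1, 3 and 9, and 354, 341 and 346 CPM in KO mice 2, 4 and 10. The groups were separated, with the lowest control library above the highest KO library. The log2 fold change was -0.25 ± 0.033 (SE; adjusted p = 8.17e-10), the smallest of the 5 falls. Herc2 footprints were 456, 465 and 484 CPM in the control mice and 362, 343 and 350 CPM in the KO mice. Its log2 fold change was -0.42 ± 0.032 (adjusted p = 4.71e-20), and 6.33% of all genes tested had a lower value.

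Huwe1, an X-linked ligase with substrates that include Mcl1, p53 and Myc family proteins, was again separated by genotype. Its footprints were 458, 448 and 459 CPM in the control mice and 337, 342 and 326 CPM in the KO mice. KO levels were 73.6% of control, a log2 fold change of -0.44 ± 0.032 (adjusted p = 1.51e-21). Trip12, a HECT ligase that acts on p19ARF and in chromatin and DNA damage responses, had the largest fall of the 8. Its footprints were 393, 412 and 416 CPM in the control mice and 309, 311 and 216 CPM in KO mice 2, 4 and 10. KO mouse 10 lay far below the other KO libraries, and these 2 were still below every control library. The log2 fold change was -0.56 ± 0.047 (adjusted p = 4.06e-18), and without KO mouse 10 it was -0.40 (adjusted p = 1.64e-14), close to those of Herc2, Huwe1 and Ubr4.

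Ubr4 and Ubr3 are UBR-box proteins, and Ubr4 is a very large recognition factor for N-terminal degradation signals. Ubr4 footprints were 399.8, 399.6 and 399.4 CPM in control mice 1, 3 and 9, the least spread of any ligase, and 305, 294 and 310 CPM in the KO mice. The log2 fold change was -0.40 ± 0.034 (adjusted p = 3.96e-18). Ubr3 behaved differently: its footprints were 406, 416 and 412 CPM in the control mice and 442, 397 and 446 CPM in the KO mice. KO mice 2 and 10 lay above the controls and KO mouse 4 below them, and the log2 fold change was 0.056 ± 0.033 (adjusted p = 0.218). Without KO mouse 4 the value was 0.11 (adjusted p = 0.0158), and with plain library sizes it was 0.12 (adjusted p = 0.00409). With plain library sizes and the gene BC048546 left out of the totals it was 0.082 (adjusted p = 0.0547), which did not pass.

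Ube3a, the Angelman syndrome ligase, and Ube3b, a HECT ligase that binds calmodulin, gave no footprint difference past the threshold. Ube3a footprints were 186, 181 and 183 CPM in the control mice and 197, 188 and 168 CPM in KO mice 2, 4 and 10. The controls lay within the KO range, and the log2 fold change was 0.0053 ± 0.046 (adjusted p = 0.949). Ube3b had the fewest footprint reads of the 8, 154 to 240 counts per library. Its footprints were 44.1, 40.7 and 37.9 CPM in the control mice and 36.5, 39.9 and 40.6 CPM in the KO mice. The groups overlapped, and with a log2 fold change of -0.058 ± 0.093 (adjusted p = 0.708) its error was the widest of the 8, so a fall as large as that of Herc1 was harder to detect in Ube3b.

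Sample titles pair control and KO footprint libraries by a shared prefix (mice 1 and 2, 3 and 4, 9 and 10), whose meaning is not given. The 5 falls were present within each prefix. In the order of those pairs, the log2 difference between KO and control was -0.26, -0.31 and -0.20 for Herc1, -0.33, -0.44 and -0.47 for Herc2, and -0.44, -0.39 and -0.50 for Huwe1. It was -0.39, -0.44 and -0.37 for Ubr4, and -0.35, -0.41 and -0.94 for Trip12. Ube3a gave 0.080, 0.052 and -0.12, and Ubr3 gave 0.12, -0.070 and 0.12, so neither kept a single sign. Ube3b gave -0.27, -0.030 and 0.10.

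Some cell type markers also passed the threshold in the footprint libraries, in both directions. Among all genes tested in footprints, 11.9% were higher and 13.6% lower. Whether any marker list exceeded these shares was not tested. Of 8 excitatory neuron markers 3 were higher and 2 lower, and their summed level was 5675 to 5829 CPM in control and 5462 to 5736 CPM in KO libraries. Of 6 oligodendrocyte markers 1 was higher and 3 lower (8194 to 8353 CPM summed in control, 8007 to 8049 CPM in KO), and of 6 astrocyte markers 1 was higher and 2 lower (4704 to 4768 CPM in control, 4724 to 4756 CPM in KO). Of 6 inhibitory neuron markers 3 were higher and 1 lower (1621 to 1667 CPM in control, 1694 to 1721 CPM in KO). Of 6 microglia markers 1 was higher, of 5 endothelial markers 1 was higher and 1 lower, and of 5 striatal markers tested 2 were higher and 1 lower. All 8 activity-regulated genes, such as Fos and Arc, were higher in KO mice in both assays, with summed footprints of 591 to 643 CPM in control and 2297 to 2341 CPM in KO libraries. Of the 4 choroid plexus markers tested, Ttr and Kcnj13 were lower, and the 5 in the table summed to 16.8 to 19.8 CPM in control and 7.35 to 13.4 CPM in KO libraries. No marker of these lists was at 0 in every library of a group. In tissue, fewer cells of a type and less RNA or fewer ribosomes per cell cannot be told apart, and the part of these shifts in the ligase results was not tested.

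RNA levels gave a different picture: 1 of the 8 ligases passed the threshold, and it was higher in KO mice. Among all 13507 genes tested in RNA, 7.41% passed, 3.53% higher and 3.88% lower. The median log2 fold change of the ligases in RNA was 0.0061, beside -0.0012 over all genes tested. Of 8 excitatory neuron markers, Camk2a (0.75) and Slc17a7 (0.20) were higher in RNA and none was lower. Their summed level was 2671 to 2943 CPM in control and 3327 to 3608 CPM in KO libraries, and without Camk2a 2249 to 2422 CPM and 2598 to 2658 CPM. Of 6 oligodendrocyte markers 1 was lower and none was higher, with sums of 4884 to 5327 CPM in control and 4267 to 4594 CPM in KO libraries. Of 6 astrocyte markers Gfap (-0.47) and Aqp4 (-0.46) were lower and none was higher. The astrocyte sum did not fall with them: it was 2989 to 3190 CPM in control and 3070 to 3805 CPM in KO libraries. Its highest value was in KO mouse 5. Of 6 inhibitory neuron markers Slc32a1 (0.56) was higher and Pvalb (-0.35) lower, and of 4 choroid plexus markers tested Kcnj13 (-0.97) was lower. The part of these shifts in the RNA values was not tested.

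Ube3b was the ligase that passed. Its RNA was 122, 131, 137 and 144 CPM in control mice 1, 3, 6 and 8, and 160, 161, 156 and 159 CPM in KO mice 2, 4, 5 and 7. All KO libraries lay above all control libraries, as they did in 7.10% of all genes tested in RNA. The log2 fold change was 0.25 ± 0.057 (adjusted p = 0.0174). In the exon columns described below the groups overlapped, with KO mouse 5 at 121 CPM and control mouse 8 at 126 CPM. The call did not survive several smaller designs. Without control mouse 1 or KO mouse 2, 4 or 7 the log2 fold change was 0.21 to 0.25 with an adjusted p of 0.0539 to 0.0645. With the near-identical KO libraries 2, 4 and 7 summed to 1 library it was 0.25 (adjusted p = 0.199). The estimate was thus of similar size while its p missed the threshold. Within the 3 title prefixes of the RNA libraries the log2 difference was 0.39 (mice 1 and 2), 0.30 (mice 3 and 4) and 0.16 (mice 5 to 8).

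The 5 ligases with fewer footprints showed no RNA change past the threshold. Huwe1 RNA was 1020, 1012, 936 and 946 CPM in control mice 1, 3, 6 and 8, and 963, 966, 1030 and 957 CPM in KO mice 2, 4, 5 and 7. The KO values fell inside the control range except for mouse 5, and the log2 fold change was 0.00072 ± 0.054 (adjusted p = 0.994). Ubr4 RNA was 637, 621, 562 and 535 CPM in the control mice and 601, 595, 597 and 581 CPM in the KO mice. The KO libraries all lay inside the control range, with a log2 fold change of 0.011 ± 0.060 (adjusted p = 0.935). Trip12 RNA was 456, 470, 401 and 355 CPM in the control mice and 424, 419, 462 and 415 CPM in the KO mice. Its log2 fold change was 0.033 ± 0.079 (adjusted p = 0.844).

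Herc1 and Herc2 had the widest spread among control libraries. Herc1 RNA was 898, 873, 794 and 651 CPM in control mice 1, 3, 6 and 8, and 790, 801, 826 and 779 CPM in KO mice 2, 4, 5 and 7. Control mice 1 and 3 lay above all KO libraries and control mouse 8 below them, and the log2 fold change was -0.0096 ± 0.082 (adjusted p = 0.960). Herc2 RNA was 1205, 1206, 1001 and 849 CPM in the control mice and 932, 954, 1051 and 954 CPM in the KO mice. Its log2 fold change was -0.13 ± 0.094 (adjusted p = 0.443). Leaving out control mouse 8, the library with the most choroid plexus RNA, gave -0.22 (adjusted p = 0.0361).

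Ubr3 RNA was 424, 447, 417 and 346 CPM in the control mice and 429, 439, 535 and 420 CPM in the KO mice, with KO mouse 5 above all others. Its log2 fold change was 0.16 ± 0.086 (adjusted p = 0.294), and 0.076 (adjusted p = 0.546) without that mouse. Ube3a RNA was 280, 313, 273 and 238 CPM in the control mice and 237, 259, 316 and 247 CPM in the KO mice. The groups overlapped across their whole range, and the log2 fold change was -0.061 ± 0.092 (adjusted p = 0.738).

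RNA differences depended on which mice were compared. In mice 1 to 4 alone, where 24.1% of 13591 genes passed, 5 of the 8 ligases did: Herc1 (-0.15), Herc2 (-0.35), Trip12 (-0.13) and Ube3a (-0.25) were lower and Ube3b (0.35) was higher. In mice 5 to 8 alone none of the 8 passed in edgeR, and 2 had an unadjusted p below 0.05. Only 88 genes passed there, so 0 of 8 does not set the ligases apart. All 8 had a positive difference between group means. Within the prefix shared by mice 5 to 8 these were 0.15 for Herc1, 0.12 for Herc2, 0.078 for Huwe1 and 0.10 for Ubr4. They were 0.22 for Trip12, 0.14 for Ube3a, 0.32 for Ubr3 and 0.16 for Ube3b. In the pair of mice 1 and 2 and the pair of mice 3 and 4, Ube3b was positive. Ubr3 was near 0 in both pairs (0.018 and -0.026). The other ligases were negative in both pairs. Control mice 6 and 8 and KO mouse 5, whose libraries stood apart in the pairwise comparison, all belong to this set, and the part of that in the result was not tested.

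Translational efficiency (TE) compares footprints with RNA for the same gene, here as the interaction of genotype and assay over all 14 libraries. TE was lower in KO mice for 3 of the 8 ligases: Huwe1 (-0.45 ± 0.066, adjusted p = 0.000186), Ubr4 (-0.42 ± 0.078, adjusted p = 0.00161) and Trip12 (-0.59 ± 0.137, adjusted p = 0.00997). Among all 12145 genes tested for TE, 7.81% passed, 3.40% higher and 4.41% lower. The median log2 change of the 8 ligases was -0.31, beside -0.011 over all genes. Herc1 (-0.25 ± 0.106, adjusted p = 0.153), Herc2 (-0.29 ± 0.1204, adjusted p = 0.146) and Ube3b (-0.32 ± 0.104, adjusted p = 0.0595) had estimates of similar size to one another that did not pass. Ubr3 (-0.11 ± 0.112, adjusted p = 0.615) and Ube3a (0.061 ± 0.125, adjusted p = 0.822) were nearer to 0.

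**Figure D2:**
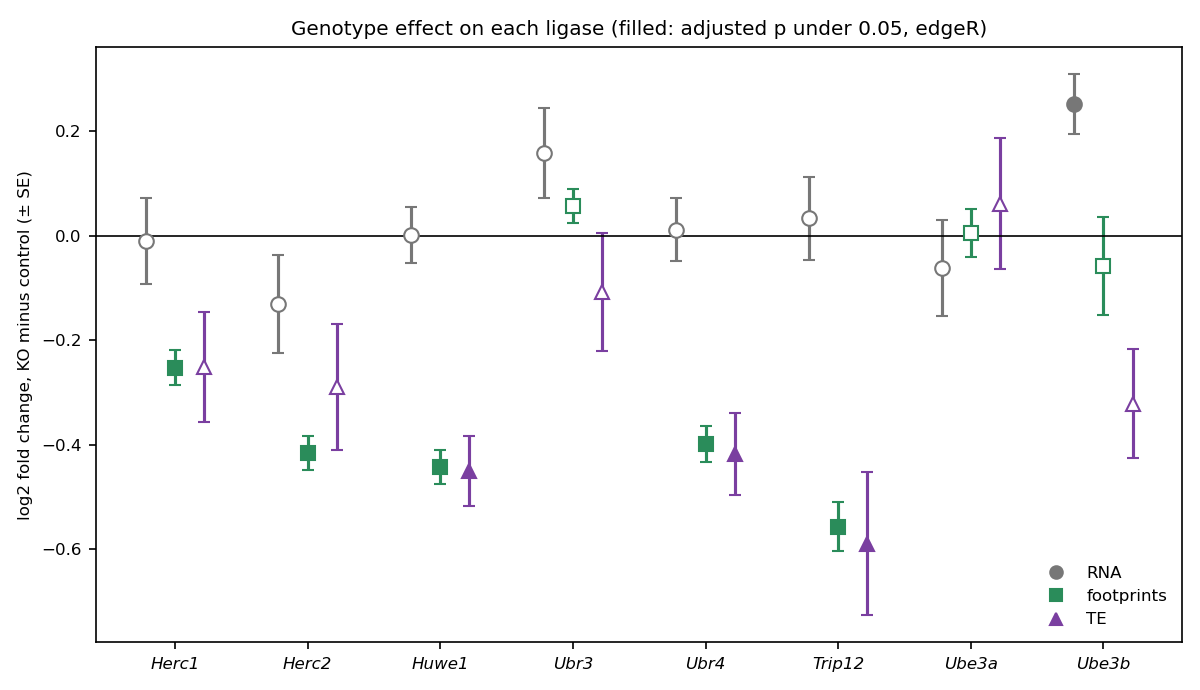
Log2 fold change between KO and control mice for each ligase in RNA (circles), footprints (squares) and TE (triangles), with bars of 1 SE; filled symbols passed an adjusted p of 0.05. The filled squares of Herc1, Herc2, Huwe1, Ubr4 and Trip12 lie between -0.25 and -0.56, while their RNA circles are open and within 0.13 of 0.

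Mice 1 to 4 gave RNA and footprints from the same animals, and the replicate block, a fit with the mouse as a block, used that pairing. With the replicate block 5 ligases passed for TE instead of 3, while the share of all genes that passed rose from 7.81% to 14.9%. Huwe1 (-0.35, adjusted p = 3.01e-07), Ubr4 (-0.36, adjusted p = 9.21e-07) and Trip12 (-0.25, adjusted p = 0.00113) remained lower, and Ube3b (-0.49, adjusted p = 0.00135) was lower as well. Ube3a was higher (0.32, adjusted p = 0.000485). Herc1 (-0.14, adjusted p = 0.0960) and Herc2 (-0.044, adjusted p = 0.684) did not pass. The block rests on 2 control and 2 KO mice. Mice measured by a single assay do not enter its estimate, among them KO mouse 10, the lowest Trip12 footprint library.

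The paired values show where the blocked and unblocked fits part. The ratio of footprint CPM to RNA CPM for Huwe1 was 0.449 and 0.442 in control mice 1 and 3, and 0.350 and 0.354 in KO mice 2 and 4. For Ubr4 it was 0.628 and 0.643 in the control mice and 0.507 and 0.495 in the KO mice. For Trip12 it was 0.862 and 0.877 against 0.729 and 0.743. In these 3 genes, and in Herc1 and Ube3b, both KO mice lay below both control mice, as they did in 27.4% of the 12145 genes tested for TE, so such separation is common with 2 mice a group. Herc2 ratios overlapped, with 0.378 and 0.386 in the control mice and 0.388 and 0.359 in the KO mice. Herc1 was 0.471 and 0.484 against 0.448 and 0.426.

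Ube3a had the opposite direction in these animals, 0.665 and 0.581 in control mice 1 and 3 against 0.831 and 0.728 in KO mice 2 and 4, and both KO mice lay above both control mice in 26.2% of all genes. Its footprints in those KO mice (197 and 188 CPM) were slightly above the controls (186 and 181 CPM), while its RNA was lower (237 and 259 CPM against 280 and 313 CPM). Ube3b fell from 0.362 and 0.311 to 0.228 and 0.248, with higher RNA and lower footprints. Ubr3 overlapped, with 0.958 and 0.931 in the control mice and 1.03 and 0.903 in the KO mice.

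**Figure D3:**
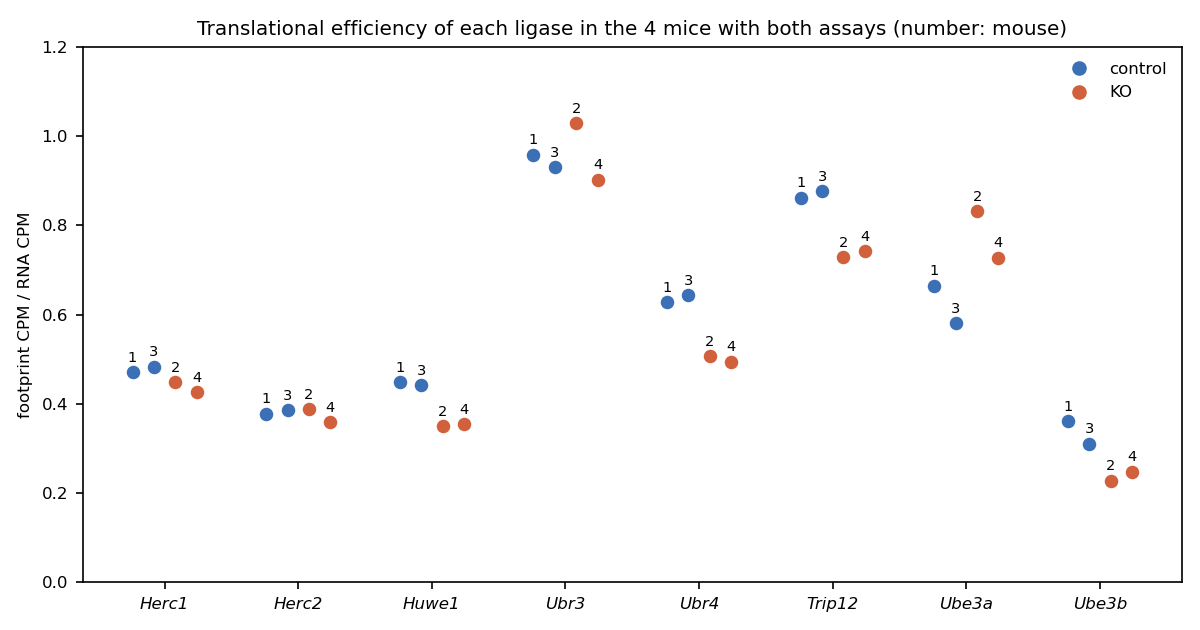
Ratio of footprint CPM to RNA CPM for each ligase in the 4 mice measured by both assays, with control mice 1 and 3 in blue and KO mice 2 and 4 in orange. KO points lie below control points for Herc1, Huwe1, Ubr4, Trip12 and Ube3b, above them for Ube3a, and among them for Herc2 and Ubr3; of all genes, 27.4% lay below and 26.2% above in this way.

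The 8 ligases also differed in their TE within control mice, taken as the ratio of mean footprint level to mean RNA level on the log2 scale over all libraries. Ubr3 had a ratio of 1.01 and Trip12 of 0.969, slightly above the median of all 12145 genes, 0.912. Ubr4 (0.679) and Ube3a (0.665) were lower, with 32.2% and 30.9% of genes below them. Herc1 (0.515), Huwe1 (0.465) and Herc2 (0.440) followed, and Ube3b was lowest with 0.307, which 6.53% of genes lay below. In KO mice Trip12 had 0.648, Ubr4 0.511, Herc1 0.435, Herc2 0.361, Huwe1 0.342 and Ube3b 0.246, while Ubr3 had 0.939 and Ube3a 0.697. In control mice Trip12 was next to Ubr3, with 54.2% of genes below it, and in KO mice it was between Ube3a and Ubr4, with 29.6% below it. Ube3a lay below Ubr4 in control mice and above both Trip12 and Ubr4 in KO mice, and Huwe1 and Herc2 exchanged places. The neighbours Ubr4 and Ube3a, and Herc1, Huwe1 and Herc2, differed in control mice by less than the larger SD compared. These SDs (0.068 for Huwe1 to 0.25 for Herc2) combine the spread of log2 RNA and of log2 footprint levels between libraries. Within control mice 1 and 3, log2 ratios were tighter and did not overlap for Herc1 (-1.09, -1.05), Huwe1 (-1.15, -1.18) and Herc2 (-1.40, -1.37). Those of Ubr4 (-0.67, -0.64) and Ube3a (-0.59, -0.78) overlapped. These ratios compare genes fairly only if both assays were counted over the same region, which the sources used here do not give.

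Each RNA library has a pair of deposited count columns, 1 without a suffix and 1 marked exon. The columns without a suffix, used above, held 98.2% of the exon column's count for Ubr4, 96.5% for Herc1, 95.4% for Herc2 and 94.7% for Huwe1 (means over control libraries, SD at most 0.60). The share was 79.8% for Ubr3 and 78.4% for Trip12, and lowest for Ube3b (67.3%) and Ube3a (62.0%). KO means ran from 61.8% for Ube3a to 98.5% for Ubr4 in the same order of genes. With the exon columns in place of the others, the ligases called in RNA and in TE were equal in number, 1 and 3. Ube3b remained the RNA call (0.26, adjusted p = 0.0471), although its groups overlapped there.

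Setting each ligase against Ube3a within a library removes the library scaling. In footprints the log2 ratio to Ube3a was lower in all 3 KO libraries than in all 3 control libraries for Herc1 (difference of means -0.26), Herc2 (-0.42), Huwe1 (-0.45), Ubr4 (-0.40) and Trip12 (-0.57). Of the 12157 genes tested other than Ube3a, 14.4% had a ratio to Ube3a that was lower in every KO library. The ratio of Huwe1 to Ube3a, for example, went from 2.48 in control to 1.82 in KO mice. With 3 libraries a group the exact permutation test cannot give a two-sided p below 0.1, which each of these 5 reached (0.14 after adjustment over the 7 ratios). The ratio of Ubr3 to Ube3a differed by 0.051 (exact p = 0.9) and that of Ube3b by -0.072 (exact p = 0.7), with overlapping groups in both.

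In RNA the ratio of Ubr3 to Ube3a was the exception among the 7. It was 1.48 in control and 1.72 in KO mice, with all 4 KO libraries above all 4 controls (log2 difference 0.22, exact two-sided permutation p = 0.0286, the smallest this design allows, and 0.2 after adjustment). Of the 13506 genes tested in RNA other than Ube3a, 2.61% had a ratio to Ube3a that was higher in every KO library. The other 6 RNA ratios overlapped between genotypes. Their log2 differences ranged from -0.054 for Herc2 to 0.32 for Ube3b, with adjusted exact p of 0.3 for Ube3b and 0.571 for the others.

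**Figure D4:**
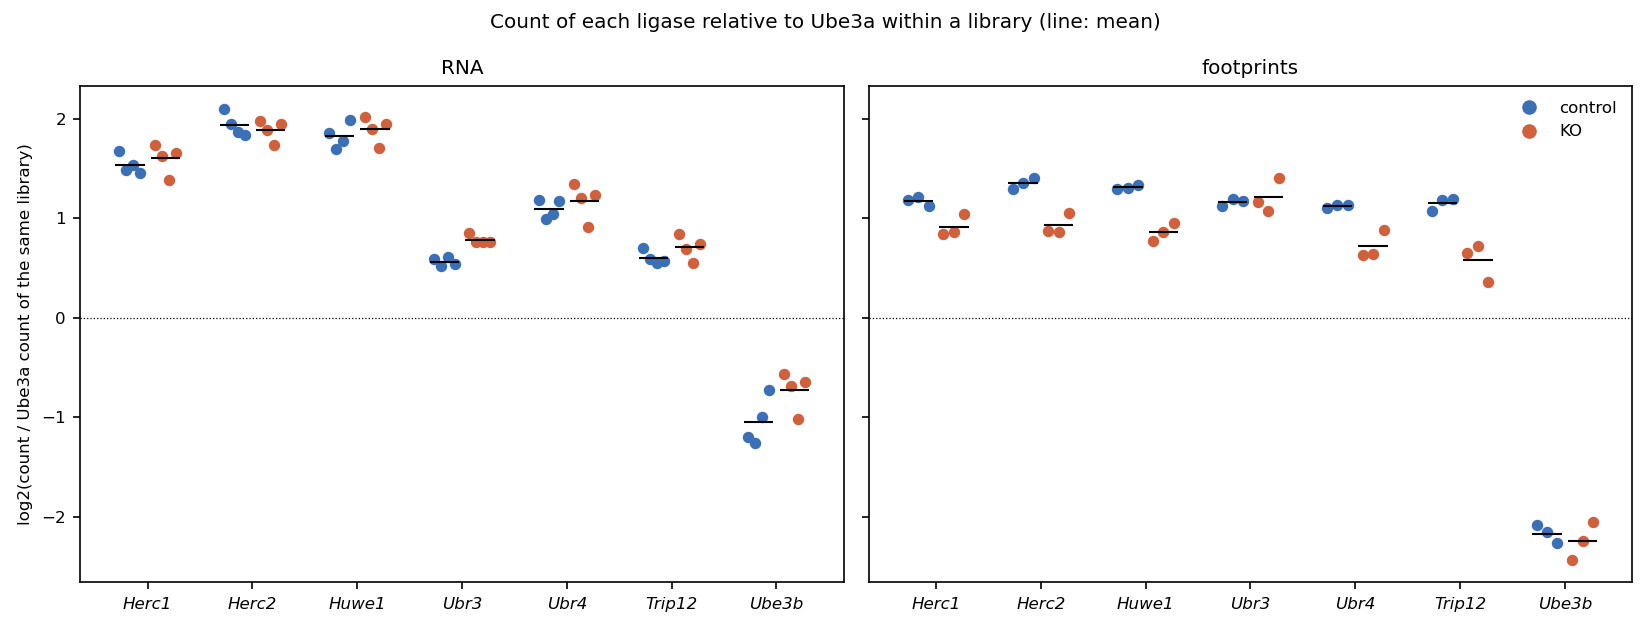
Log2 ratio of each ligase's count to the Ube3a count of the same library, for RNA (left, 4 control and 4 KO libraries) and footprints (right, 3 and 3), with a line at each mean; gene length was not divided out, so heights compare genotypes within a gene, not genes. In footprints the KO points of Herc1, Herc2, Huwe1, Ubr4 and Trip12 lie below the control points, and in RNA the KO points of Ubr3 lie above them.

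Similarity of pattern was described over the 14 libraries, after centring log2 CPM within each assay, for 12123 genes. The points share library depth, genotype and the libraries that stood apart, and no p is given. The genes most like Huwe1 were Tln2 (r = 0.979), Map1a (0.976) and Srrm2 (0.969), and those most like Ubr4 were Nsd1 (0.984), Dst (0.978) and Arid1a (0.976). Huwe1 and Ubr4 were close to each other, with r = 0.947 and Ubr4 ranked 11 among all genes for Huwe1. Herc1 was most like Hnrnpa2b1 (0.978), D5Ertd579e (0.956) and Mycbp2 (0.952), and Herc2 was close to Synm (0.979) and Lmo7 (0.970). Herc1 and Herc2 had r = 0.915 with each other. Mycbp2 is itself a very large ubiquitin ligase.

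The other ligases had different genes as their 3 most alike. Trip12 was nonetheless close to Huwe1, which ranked 20 among all genes for Trip12 (r = 0.876). By Spearman's rho that pair had 0.952, beside 0.930 for Huwe1 and Ubr4. Trip12 was most like Jarid2 (0.942), Rab11fip1 (0.927) and Adamts17 (0.926), and Ubr3 most like Epm2aip1 (0.933), Tmem145 (0.930) and Pum2 (0.920). Ube3a was most like Yme1l1 (0.922), Atrn (0.904) and Nckap1 (0.900), and Ube3b most like Mef2a (0.945), Ccdc85c (0.923) and Adra1a (0.879). By Spearman's rho, 6 of the 24 most alike genes (3 for each ligase) were again among the 3 most alike.

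Other enzymes of the pathway were taken from lists written from general knowledge with earlier results of these data known. Their footprint counts stand beside the 11.9% of all genes that were higher and the 13.6% that were lower. Of 17 other HECT ligases tested, 2 were higher and 2 lower, near that background, with a median log2 fold change of -0.030. Herc6, a small HERC protein that in mice carries ISG15 ligase activity, rose from 4.01, 5.60 and 2.66 CPM in control mice 1, 3 and 9 to 12.6, 12.3 and 11.9 CPM in KO mice 2, 4 and 10 (log2 fold change 1.57 ± 0.218, adjusted p = 5.20e-09). Its RNA was higher too (0.78 ± 0.176, adjusted p = 0.0169), so the fall of the large HERC genes did not extend to it.

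Among the other UBR-box genes, Ubr2 had fewer footprints in KO mice (-0.30 ± 0.049, adjusted p = 5.93e-07), and none had more. Both of the other giant ligases tested also fell: Birc6, an inhibitor of apoptosis with E2 and E3 activity, by 0.44 (SE 0.035, adjusted p = 6.86e-20) and Mycbp2 by 0.36 (SE 0.036, adjusted p = 2.36e-14) on the log2 scale. Birc6 footprints were 395, 416 and 401 CPM in the control mice and 315, 292 and 287 CPM in the KO mice, and neither gene passed in RNA. For TE, Birc6 passed (-0.34 ± 0.089, adjusted p = 0.0188) and Mycbp2 did not (-0.33 ± 0.108, adjusted p = 0.0657).

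Upstream in the cascade, 8 of 23 E2 enzymes tested were higher in footprints and 1 was lower (11.9% and 13.6% of all genes), with a median of 0.13. Among those called, Ube2a had the largest rise, 0.41 ± 0.080 (adjusted p = 2.32e-05), and Ube2o, a large enzyme with both E2 and E3 activity, was the one that fell, by 0.24 (SE 0.036, adjusted p = 3.09e-08). Of the 2 E1 enzymes, Uba1 was lower (-0.11 ± 0.024, adjusted p = 0.000309). In RNA, where 3.53% of all genes were higher and 3.88% lower, 1 of 28 E2 enzymes was higher and none was lower, and neither E1 enzyme passed in edgeR.

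Among 6 known binding partners of the ligases, 3 had fewer footprints and none had more (13.6% and 11.9% of all genes). Calm2, a calmodulin gene and thus a source of the Ube3b partner, was lower in footprints (-0.33 ± 0.022, adjusted p = 2.41e-23) and in RNA (-0.34 ± 0.051, adjusted p = 0.00197), the assay in which Ube3b was higher. The other members lower in footprints were Calm3 (-0.14) and Neurl4 (-0.18), a Herc2 partner. Of 5 tested genes of the imprinted region beside Ube3a, Snurf was higher in footprints (0.45 ± 0.038, adjusted p = 1.20e-18) and lower in RNA (-0.25 ± 0.051, adjusted p = 0.0118), and its TE was higher (0.70 ± 0.071, adjusted p = 3.67e-06). Magel2 had the largest footprint fall of that list (-0.85 ± 0.288, adjusted p = 0.0191), and Snrpn and Ndn were lower as well. Snurf and Snrpn are made from a shared transcript, and how reads were split between them was not tested. Snhg14, whose long RNA runs antisense through Ube3a, was not analysed here. Whether counting used strand is not given in the sources used here, so reads of the antisense transcript in the Ube3a count were not told apart, and the same holds for Fbxo36, which overlaps Trip12, and Fbxl22, which overlaps Herc1.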

How the data were processed

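RNA-seq (8 libraries) and ribosome profiling (6 libraries) of mouse brain cortex were analysed from a table of gene counts that the authors deposited: whole-number read counts per gene, not normalized. Per the labels' protocols, RNA was depleted of ribosomal RNA and made into strand-specific libraries, and monosome footprints of about 28 to 34 nucleotides were made into libraries without ligation. The submitters' processing notes name Bowtie2, STAR 2.5, featureCounts and Subread 1.4.6 and the builds mm9 and mm10, without roles. The annotation, the strand setting and the region counted are not given in the sources used here. Of the 23412 genes, 2849 had no value in the footprint columns and in the RNA columns without a suffix, and were left out.

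From the deposited counts, genotypes were compared with edgeR 4.0.16 (quasi-likelihood F test, TMM factors, filterByExpr with a minimum count of 10, Benjamini-Hochberg adjustment over all genes tested, threshold 0.05). RNA and footprints were fitted separately, and TE as the interaction of genotype and assay. SEs are the log2 fold change divided by the square root of F. All 8 ligases passed the filter in each test. Ratios to Ube3a used exact permutation tests. The fits were tested on simulated data. Same-numbered mice in both assays are the same animals by the labels, which is where the pairing comes from, although the deviations of their libraries correlated by only -0.014 to 0.034 over genes. Levels per coding length and fold changes by protein length were not computed, for want of protein lengths.

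All 8 ligases were named with their values; from the other lists, the genes past the threshold with the largest footprint rise and fall were named, except for some that are not reported here, and the remaining list genes that are named were chosen after their values were seen. The members and the lists were chosen with earlier results of these data known.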

Additional observations from a re-analysis of the deposited data

Results flagged for a closer look

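Among 32 groups of 4 RNA libraries examined (for the 8 ligases in each genotype, the RNA level and the share of the exon count in the column without a suffix), 2 held a library far from the other 3. Chance alone flags about 1 in 20 groups, which is 1.6 of 32, so 2 is close to the number chance gives. Huwe1 RNA in KO mouse 5 was 1029.55 CPM, against 957 to 966 CPM in KO mice 2, 4 and 7. Ubr3 RNA in KO mouse 5 was 534.8 CPM, against 420 to 439 CPM in the other KO mice. KO mice 2, 4 and 7 are the libraries that differed little more than sampling noise, so mouse 5 was set against a narrow group, and what set it apart was not tested.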

How the results depend on the processing

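The 5 ligases with fewer footprints kept direction and call under all 13 alternatives run for footprints. All 5 remained when 1 fit over all 14 libraries shared the spread (highest adjusted p 0.0388, Herc1). All genes called fell from 3102 to 1684 there and to 1801 with DESeq2. RNA had 18 alternatives, and its summing of near-identical libraries and its split by mice were not run for footprints. Footprint pairs within a genotype (1.15 to 1.42) were about as close as the summed RNA libraries of KO mice 2, 4 and 7 (1.18 to 1.32). The assays thus cannot be ranked by their dependence on the processing. For single ligases, 102 of 104 footprint values, 147 of 152 TE values and 132 of 144 RNA values kept their side of the threshold and, where called, their direction.

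RNA counts moved widely under the alternatives run for RNA. The 1001 genes called became 79 with KO mice 2, 4 and 7 summed, 36 with control mice 1 and 3 summed too, 3273 in mice 1 to 4 and 88 in mice 5 to 8, and 356 to 1763 when each mouse was left out in turn. Ligases called in RNA numbered 0 with either summing and in mice 5 to 8 (2 in each at an unadjusted p below 0.05, by edgeR), 5 in mice 1 to 4 (4 of them lower), and 0 to 2 with a mouse left out (0 to 1 lower). Trip12 RNA reversed to -0.13 in mice 1 to 4. The cause was not tested.

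The 949 genes called for TE became 1812 with the replicate block, 1903 with limma voom, 543 and 579 with RNA libraries summed, and 419 to 1289 with a mouse left out, lowest without KO mouse 2. Ligases called for TE numbered 5 with the replicate block and 5, all lower, with limma voom, and 3 to 4 with a mouse left out. Ube3b joined the called genes without control mouse 8 (-0.36, adjusted p = 0.0226), and with limma voom Herc1 (-0.21, adjusted p = 0.0438) and Ube3b (-0.36, adjusted p = 0.0130) did. The title prefix as a block, fitted for RNA and footprints and not for TE, changed no ligase call in those 2 tests. Classes of protein length were not run, for want of protein lengths. Ube3b, with 154 to 240 footprint counts per library, is the ligase most limited by depth.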
